A study of Sus scrofa with 16 samples.

Results

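The genes of major histocompatibility complex (MHC) class II and its partners were followed in the liver of 16 pigs (Sus scrofa), in a study of 2 lines of pigs that differ in residual feed intake (RFI, the part of feed intake that body weight and growth do not account for). The low-RFI line (RFIneg) and the high-RFI line (RFIpl) had 8 pigs each, all at 20 kg body weight and fed ad libitum, with 1 array per pig. The comparison asks whether levels differ between the lines, and with no further line sampled, an effect of selection on RFI and any other difference of the lines cannot be told apart. The members were chosen by name. They were every array probe whose symbol in the files, or whose RefSeq match, was SLA-DRA, SLA-DRB1, SLA-DQA1, SLA-DQB1, SLA-DMA, SLA-DMB, SLA-DOA, SLA-DOB, CD74 or CIITA. This gave 35 of the 43603 probes on the array, for 9 of the 10 genes: 9 for SLA-DQA1, 7 for SLA-DRA, 4 each for SLA-DRB1 and SLA-DQB1, 3 for SLA-DOB, and 2 each for SLA-DMA, SLA-DMB, SLA-DOA and CD74. No probe carried the symbol CIITA. Another 10 probes were described in the files as class II sequences without a member's symbol, and are given apart.

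MHC class II molecules, called SLA class II in the pig, are pairs of an alpha and a beta chain that carry peptides from engulfed proteins to the cell surface, where CD4 T cells read them. CD74, the invariant chain, guides new alpha-beta pairs to the endosome and blocks their groove. DM (SLA-DMA with SLA-DMB) exchanges the last piece of CD74 for peptide, and DO (SLA-DOA with SLA-DOB) holds DM back. CIITA is the coactivator that switches the family on. In liver, macrophages (Kupffer cells), dendritic cells, B cells and sinusoidal endothelium are the usual carriers. Some of the DR and DQ chains, though not all, are among the most variable genes in the genome from one animal to the next.

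A level here is the log2 processed signal of a probe minus the 75th percentile of its array, and a change is the low-RFI mean minus the high-RFI mean. A probe was tested if 8 or more of the 16 arrays showed it well above background, as they did for 30097 probes, 34 of the 35 member probes among them. The one left out was an SLA-DOB probe (A_72_P440006). The median local background was 29 to 40 intensity units, the 75th percentile of signal 320.0 to 508, and no spot was saturated. Noise, as the coefficient of variation that the headers give for repeated spots, was 6.97 ± 0.50% on low-RFI and 8.04 ± 0.66% on high-RFI arrays (SD, n = 8 each). Each of the 4 slides held 2 pigs of each line. The livers showed the hepatocyte markers at high level. The summed signal of 5 of the 6 listed hepatocyte markers was 1921 to 2619 times the 75th percentile in low-RFI pigs and 1741 to 2418 times in high-RFI pigs. The number of arrays limits the precision. A p-value of the line comparison sets the change against the spread between pigs of a line. With 1 array per pig that spread includes array noise.

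The sequences of some DQ alpha probes are shown first, because probes of this gene that differ by few bases gave different patterns over the pigs. The arrays carry probes of 60 bases. Capitals mark the bases at which the overlapping parts of a pair differ. A_72_P763148 (SLA-DQA1) overlaps A_72_P743257, described only as a class II alpha chain, over 59 bases with 5 differences:
A_72_P763148: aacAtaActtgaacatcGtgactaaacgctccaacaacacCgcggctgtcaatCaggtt
A_72_P743257: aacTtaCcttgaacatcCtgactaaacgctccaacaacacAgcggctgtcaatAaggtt

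A_72_P244477 and A_72_P765361, both SLA-DQA1, overlap over 56 bases with 3 differences, which fall within these 30 bases:
A_72_P244477: aCtaatatgtacatggaaAcaataaatcAc
A_72_P765361: aTtaatatgtacatggaaCcaataaatcCc

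A_72_P742057 is an SLA-DQA1 probe annotated to a clone from immature dendritic cells. A_72_P788198 is described as the alpha chain of DQ haplotype D, without a member's symbol. Neither shared such an overlap with another class II probe. Their first 30 bases are shown because 3 pigs stood far above the others on both:
A_72_P742057: tgaattttttcctgtctttcatctcaaggc
A_72_P788198: cattcccagtaacacaggagaagcatgtat

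A_72_P712598 and A_72_P746609 (SLA-DQA1) overlap over 38 bases with 1 difference. They are shown as a pair that set no such 3 pigs apart, with r of 0.96 and 0.92 and rho of 0.91 and 0.83 against the brightest SLA-DQA1 probe:
A_72_P712598: caAaaatgatcattccttcctcaagatcag
A_72_P746609: caGaaatgatcattccttcctcaagatcag

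None of the 34 tested class II probes differed between the lines in the limma fit, adjusted by Benjamini-Hochberg across the tested probes (0 called, adjusted p = 0.649 to 0.998). Over all tested probes 3 were called (0.00997%). At an unadjusted p under 0.05 there were 2 of 34 class II probes, against 5.46% of all tested probes. Of these 2, 1 was lower and 1 higher in low-RFI pigs, against 2.96% and 2.5% of all tested probes. The lines overlapped on every class II probe, and were apart on 0.0432% of all tested probes. The change was below 0 for 31 of the 34 probes, against 50.1% of all tested probes, with a median of −0.11 against −0.00046. That count depended on which animals were kept. Without high-RFI pig 5 the change was below 0 for 16 of 34, and the median was +0.01. Without low-RFI pig 5 it was below 0 for 32 of 34, and the median was −0.23. Leaving out any other single pig gave 25 to 32. The count was 26 with scaling to the median of each array and 28 with another background correction (normexp). Probes of a gene share their target and all probes share the pigs, so these are not independent counts. Class II probes varied more over pigs of a line than most, with a median SD within lines of 0.50 against 0.33 over all tested probes.

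**Figure D1:**
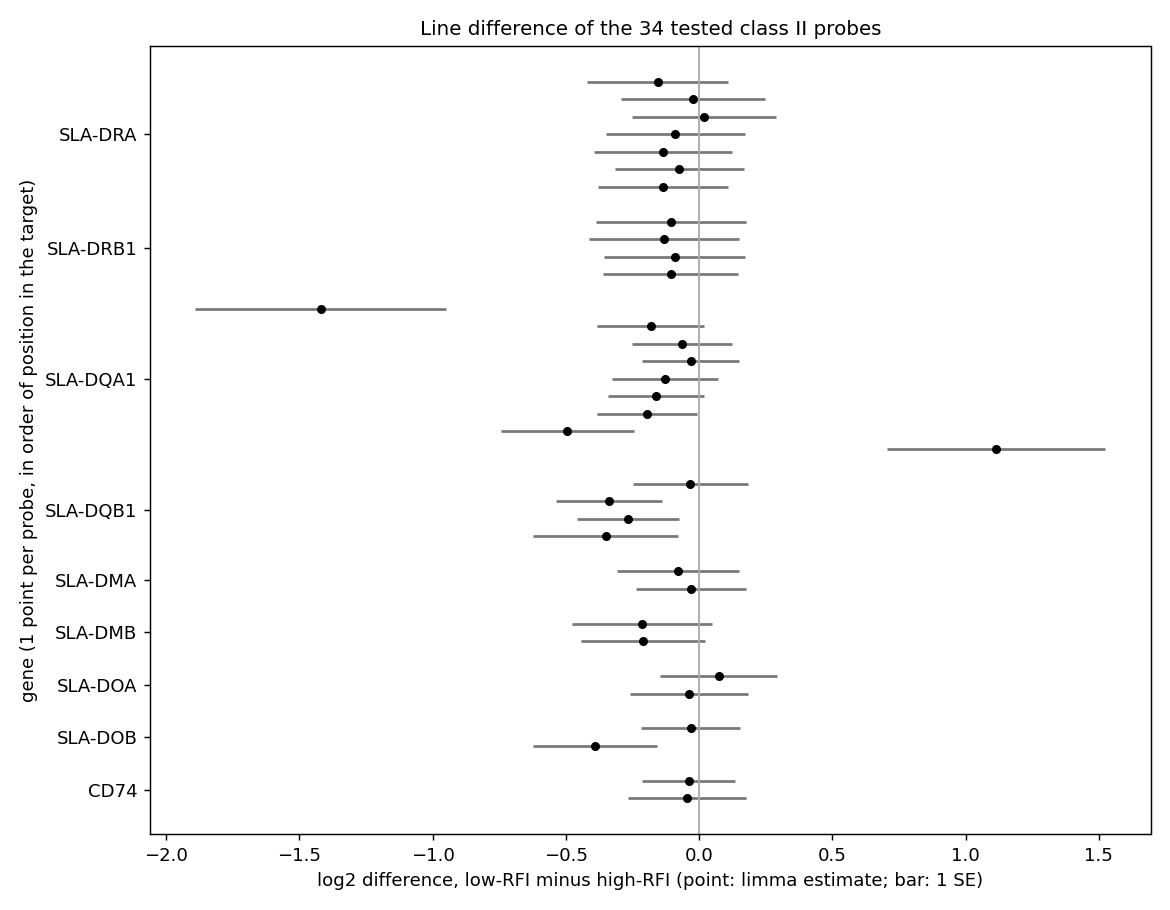
Change of each of the 34 tested class II probes (horizontal axis, log2 low-RFI minus high-RFI, limma estimate with 1 SE) by gene (vertical axis, probes in order of position in their target). Probes of SLA-DQA1 and of SLA-DOB did not all have the same target. Most points lie between 0 and −0.40 with bars that cross or come near 0, and 2 SLA-DQA1 probes lie apart at −1.42 and +1.11.

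The classical chains come first, each by its brightest probe. SLA-DRA, the DR alpha chain, had levels of 3.81 to 5.35 with a median of 4.37 in low-RFI pigs, and 3.72 to 5.46 with a median of 4.35 in high-RFI pigs. The lines spanned nearly the same range, with pig 5 of each line at the top. Their means were 4.37 ± 0.46 and 4.51 ± 0.58 (SD, n = 8 each), a change of −0.14 (SE 0.244). The other 6 SLA-DRA probes had changes of −0.16 to +0.02, and followed the brightest over the 16 pigs with r of 0.96 to 0.99.

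SLA-DRB1, the DR beta chain, had levels of 2.20 to 3.51 in low-RFI pigs (median 2.65) and 2.16 to 3.64 in high-RFI pigs (median 2.67). Its change was −0.09 (SE 0.263). The highest 5 pigs, low-RFI 3 and 5 and high-RFI 1, 3 and 5, were at 3.34 or above, and the others at 3.08 or below. The other 3 probes followed the brightest with r of 0.99, and changed by −0.13 to −0.11.

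SLA-DQB1, the DQ beta chain, ranged from 3.1 to 4.19 in low-RFI pigs (median 3.46) and from 3.11 to 4.49 in high-RFI pigs (median 3.81). The low-RFI mean was 3.51 ± 0.33 and the high-RFI mean 3.78 ± 0.46, a change of −0.27 (SE 0.192). Of the 8 low-RFI pigs, 7 were below the high-RFI mean, yet the difference is within the spread of the lines. The other 3 probes had changes of −0.35, −0.34 and −0.03 and followed the brightest less closely, with r of 0.61 to 0.89.

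SLA-DQA1, the DQ alpha chain, ranged on its brightest probe (A_72_P721473) from 3.23 to 4.37 in low-RFI pigs (median 3.42) and from 3.31 to 4.36 in high-RFI pigs (median 3.62), a change of −0.16 (SE 0.180). Another 5 of its probes followed the brightest closely (r of 0.92 to 0.97, rho of 0.83 to 0.93) and had changes of −0.19 to −0.03. The remaining 3 probes, A_72_P763148, A_72_P765361 (r = 0.87, rho 0.88) and A_72_P742057, had the largest changes of the 34 tested probes and are described further on. A_72_P763148 was annotated to the same reference transcript as the brightest probe. A_72_P765361 and A_72_P742057 were annotated to other targets, and both were described by the same clone from immature dendritic cells. Positions in the target are therefore not on 1 scale for all SLA-DQA1 probes.

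**Figure D2:**
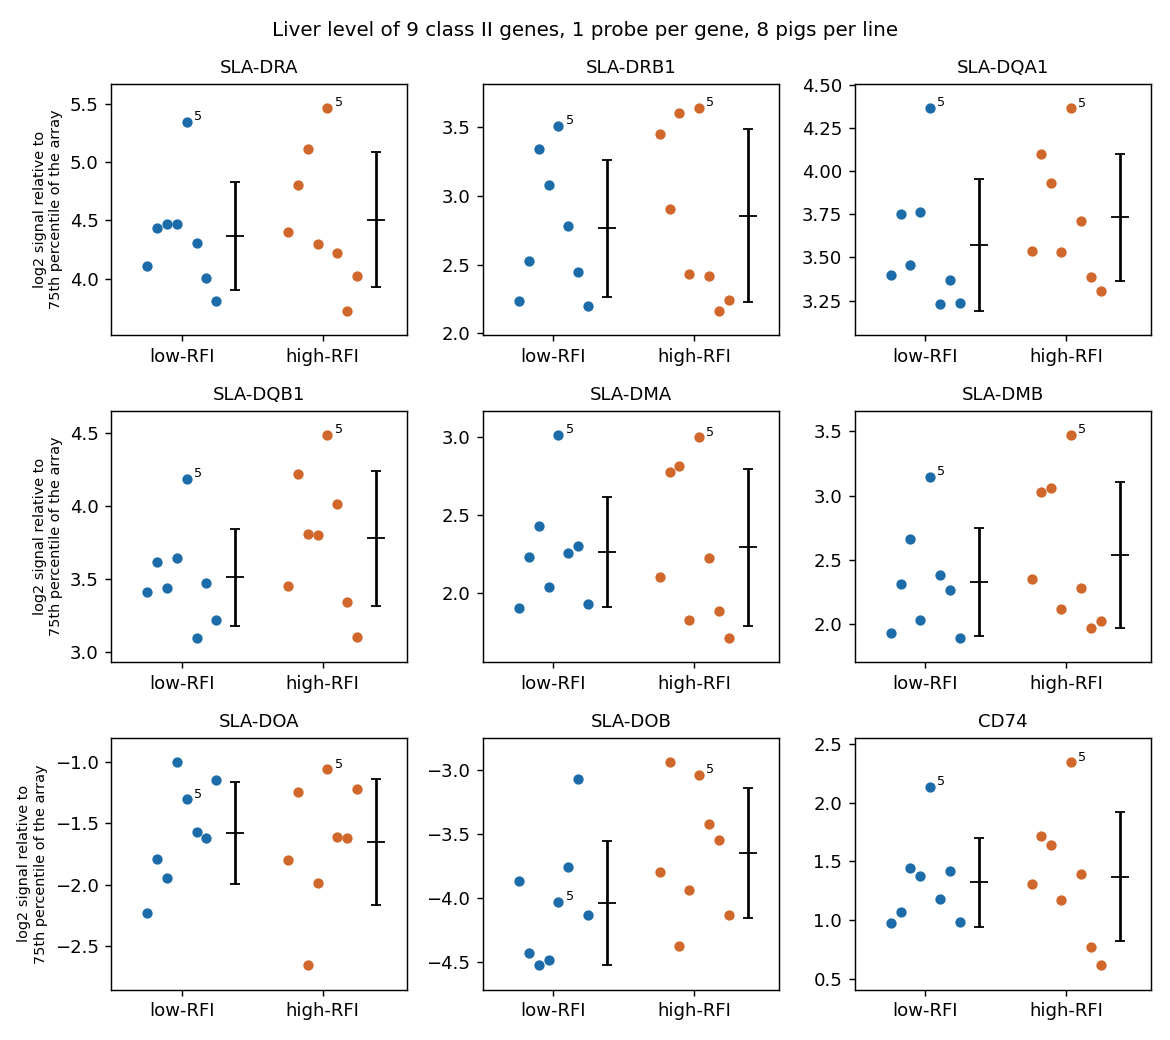
Level of the brightest probe of each class II gene (vertical axis, log2 signal minus the array's 75th percentile) in each pig (points, 8 per line, in order of replicate number) with the mean and SD of the line beside them. Pig 5 of each line, marked 5, is at or near the top for SLA-DRA (5.35 and 5.46) and the other classical genes and CD74, and the lines overlap in all 9 panels.

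The helpers of peptide loading were as close between the lines. CD74, the invariant chain, was at 0.98 to 2.14 in low-RFI pigs (median 1.28) and 0.61 to 2.34 in high-RFI pigs (median 1.35). The high-RFI line held both the highest and the lowest pig. Its change was −0.05 (SE 0.222), and the second CD74 probe gave −0.04. SLA-DMA, the alpha chain of the peptide exchanger, had a change of −0.03 (SE 0.206) and SLA-DMB, its beta chain, −0.21 (SE 0.232). SLA-DMA ran from 1.90 to 3.01 in low-RFI pigs and from 1.71 to 3.0 in high-RFI pigs. SLA-DMB ran from 1.89 to 3.14 and from 1.97 to 3.47, and the second probes of both genes gave −0.08 and −0.21.

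The chains of DO were dim. SLA-DOA lay at −2.23 to −1.0 in low-RFI pigs and −2.66 to −1.06 in high-RFI pigs, with means of −1.58 ± 0.41 and −1.65 ± 0.51 and a change of +0.07 (SE 0.219). SLA-DOB lay at −4.53 to −3.07 and −4.38 to −2.94, with means of −4.04 ± 0.49 and −3.65 ± 0.51 and a change of −0.39 (SE 0.233). This was the largest change among the brightest probes of the 9 genes, but with normexp it was +0.09 (0.0865), so no direction can be read from it. The changes of SLA-DMA, SLA-DRB1, CD74 and SLA-DOA also crossed 0 when single pigs were left out. Within slides, the changes of SLA-DQA1, SLA-DQB1 and SLA-DOB were below 0 on all 4, and those of the other 6 genes were above 0 on at least 1.

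For CIITA, a probe without its symbol (A_72_P443036) was described in the files as a class II transactivator, the full name of that gene. It was well above background on all 16 arrays. Its level was −0.02 to 0.59 in low-RFI pigs and −0.05 to 0.69 in high-RFI pigs, with means of 0.30 ± 0.19 and 0.29 ± 0.29. The change was +0.01 (SE 0.127). A probe described after a mouse C2ta sequence (A_72_P272649) gave −1.29 ± 0.18 and −1.35 ± 0.17, a change of +0.06 (SE 0.101). Both spread less over pigs than the classical chains.

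Most class II genes had the same high and low pigs. SLA-DRA rose and fell with 6 of the 8 other class II genes over the 16 pigs (two-sided permutation tests with 100000 resamples, Benjamini-Hochberg over the 8 pairs). Pearson's r was 0.93 with SLA-DMB (rho 0.86, permutation p = 2e-05, adjusted p = 4e-05), 0.91 with SLA-DQA1 (rho 0.84, permutation p = 1e-05, adjusted p = 4e-05) and 0.90 with CD74 (rho 0.80, permutation p = 1e-05, adjusted p = 4e-05). It was 0.89 with SLA-DMA (rho 0.76, permutation p = 5e-05, adjusted p = 8e-05), 0.86 with SLA-DRB1 (rho 0.92, permutation p = 2e-05, adjusted p = 4e-05) and 0.79 with SLA-DQB1 (rho 0.71, permutation p = 0.0003, adjusted p = 0.0004). The smallest p that these permutations can give is 1e-05. As background, SLA-DRA had a median r of −0.04 with 29960 tested probes that are no member, and 0.571% of them were over 0.80.

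Both lines showed the relation. Within the low-RFI line the 6 values of r were 0.85 to 0.91 and within the high-RFI line 0.77 to 0.97 (n = 8 each). Within the 2 runs of sample numbers, each with 4 pigs of each line, r was 0.61 to 0.91 and 0.83 to 0.99. With levels centred within slides r was 0.71 to 0.91. The pigs farthest from the median of SLA-DRA were pig 5 of each line, at 5.35 and 5.46. Without them r was 0.86 for SLA-DMB, 0.81 for SLA-DRB1, 0.80 for SLA-DQA1, 0.80 for SLA-DMA, 0.77 for CD74 and 0.60 for SLA-DQB1, and all 6 still passed (adjusted p = 0.00056 to 0.0291 by permutation).

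The DO genes did not follow SLA-DRA detectably. SLA-DOA had an r of 0.03 (rho 0.10, permutation p = 0.92, adjusted p = 0.92) and SLA-DOB one of 0.07 (rho −0.11, permutation p = 0.81, adjusted p = 0.92). Without the 2 farthest pigs these were −0.40 and −0.20. The pair of SLA-DOA probes, which share 46 bases, had an r of 0.59 with each other, and the pair of SLA-DOB probes one of 0.73. The probe described as the class II transactivator also showed no detectable relation to SLA-DRA (r = −0.05, rho −0.03, permutation p = 0.848, adjusted p = 0.972 over the 7 described probes).

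**Figure D3:**
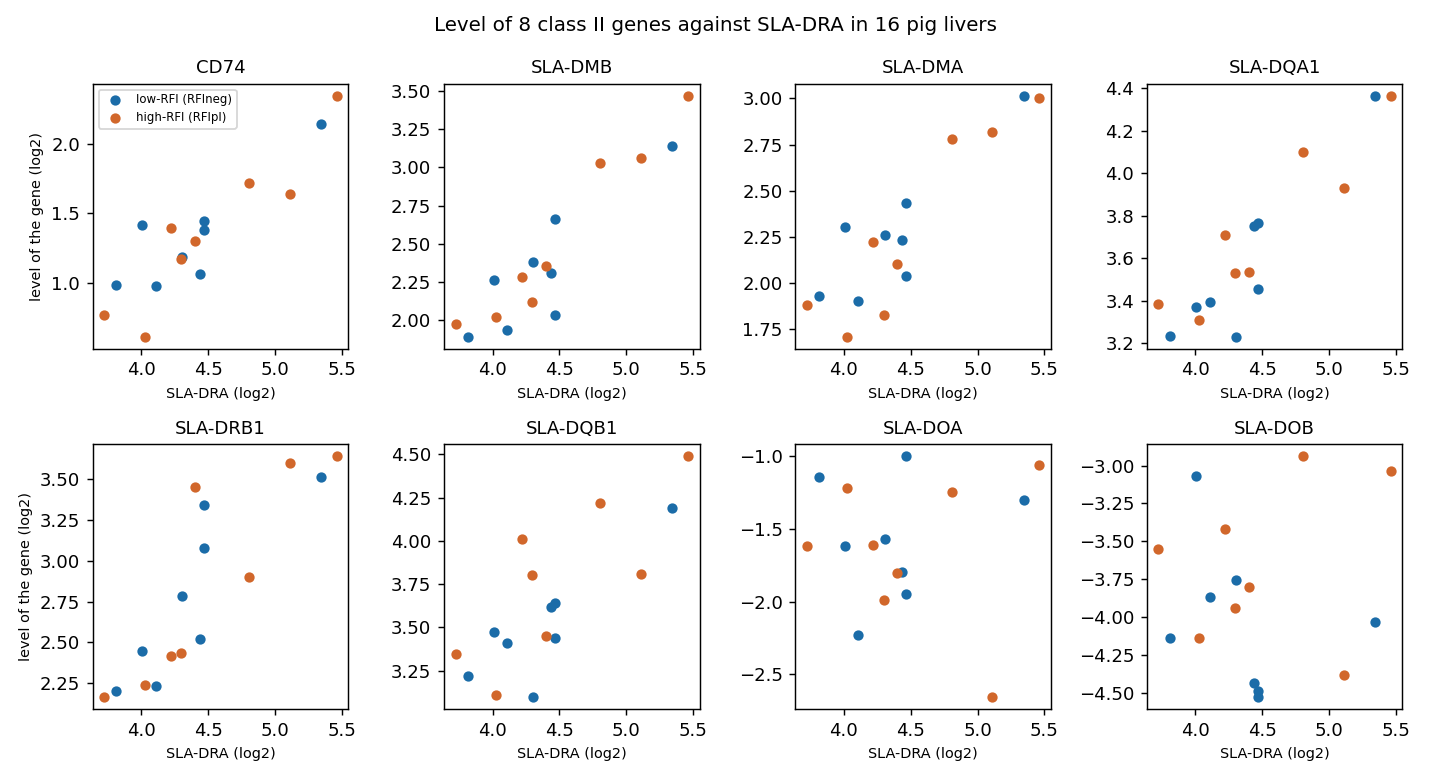
Level of 8 class II genes (vertical axes, log2 signal minus the array's 75th percentile) against that of SLA-DRA (horizontal axes, same scale) in 16 pigs, coloured by line. In 6 panels the points rise together (r of 0.79 to 0.93), with both pigs numbered 5 at the upper right, and in the panels of SLA-DOA and SLA-DOB they do not (r of 0.03 and 0.07).

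High-RFI pig 5 had the highest level of all pigs on 23 of the 34 tested class II probes, and was first or second on 31. Low-RFI pig 5 was first or second on 22. At the other end high-RFI pig 7 was lowest on 13 probes, low-RFI pig 8 on 7 and high-RFI pig 8 on 5. The labels do not say that pigs with the same replicate number belong together. Both pigs numbered 5 were on slide 2, with sample numbers 55 and 56. Both pigs numbered 8 were on slide 4, with sample numbers 61 and 62. Slide 2 also held high-RFI pig 2, with a median rank of 4.0 over these probes, and low-RFI pig 1, with 11.5. Whether slide or sample order had a part in these ranks was not tested.

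The level of SLA-DRB1 minus that of SLA-DRA was −0.95 in high-RFI pig 1, −1.12 in low-RFI pig 3 and −1.39 in low-RFI pig 4. In the other 13 pigs it was between −1.91 and −1.51. Only how this difference varies over pigs can be read, since each probe binds in its own way, and no test set these pigs apart.

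The SLA-DQA1 probes that went their own way were these. A_72_P763148 had levels of −0.44, −1.68, −1.32, −1.45, −0.80, −0.76, 0.68 and −1.64 in low-RFI pigs 1 to 8. In high-RFI pigs 1 to 8 it had −1.59, 1.94, −0.96, 0.70, 1.59, 1.29, 0.88 and 0.10. All low-RFI pigs but pig 7 were below −0.40, and all high-RFI pigs but pigs 1 and 3 were above 0. The highest and the lowest pig were 12.3-fold apart, and the means were −0.93 ± 0.79 and 0.49 ± 1.24.

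The change of A_72_P763148 was −1.42 (SE 0.470, limma, adjusted p = 0.649) and did not pass, though it is 1 of the 2 at an unadjusted p under 0.05. Over the alternatives tried it was −1.72 to −1.11, with an adjusted p of 0.475 to 0.886. It was −0.35, −2.39, −1.83 and −1.11 within the slides, and −1.24 and −1.59 within the runs of sample numbers. It followed the brightest SLA-DQA1 probe with an r of only 0.28 (rho 0.13, permutation p = 0.295, adjusted p = 0.308 over 25 pairs of probes of the same gene).

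Its near twin A_72_P743257, which differs at 5 of 59 bases as shown above, ranked some pigs alike and others not. It was at 0.79, 0.21 and 0.77 in low-RFI pigs 1, 6 and 7 and at −2.42 to −1.37 in the other low-RFI pigs. High-RFI pigs 2, 4, 5, 6 and 7 were at −0.40 to 0.58, and pigs 1, 3 and 8 at −2.0 to −1.07. Low-RFI pigs 1 and 6 were above 0 on this probe and below −0.40 on A_72_P763148. Its change was −0.55 (SE 0.527, limma, adjusted p = 0.979).

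A_72_P742057 had levels of 2.92, 2.58 and 2.40 in low-RFI pigs 1, 6 and 7. The other 5 low-RFI pigs were at 0.07 to 1.22 and the high-RFI pigs at −0.63 to 1.20. The means were 1.34 ± 1.13 and 0.22 ± 0.59, a change of +1.11 (SE 0.409, limma, adjusted p = 0.716), with 11.7-fold between the highest and the lowest pig. It ran from 0.89 to 1.31 over the alternatives, and was 1.30, 1.38, 1.67 and 0.10 within the slides.

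A_72_P788198, described as the alpha chain of DQ haplotype D, separated the same 3 pigs by more. Low-RFI pigs 1, 6 and 7 were at 1.45, 1.27 and 1.25, low-RFI pigs 2, 3, 4, 5 and 8 at −2.43, −2.60, −2.43, −1.66 and −2.78. The high-RFI pigs 1 to 8 were at −2.57, −3.12, −2.27, −3.20, −1.99, −3.30, −4.04 and −3.44. No pig lay in the gap of 2.90 between −1.66 and 1.25, and the extremes were 44.9-fold apart. The change was +2.0 (SE 0.657, limma, adjusted p = 0.648).

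On A_72_P765361 the same 3 pigs were the lowest, at 0.20, −0.05 and 0.30, and the other 13 were at 0.75 or above. Its sister A_72_P244477, which differs at 3 of 56 bases, did not set them apart. The level of A_72_P765361 minus that of A_72_P244477 was −3.15, −3.29 and −3.02 in low-RFI pigs 1, 6 and 7 and between −2.47 and −2.19 in all others. Relative to its sister, this probe was thus 0.54 or more lower in each of these 3 pigs than in any other. The change of A_72_P765361 was −0.49 (SE 0.250, limma, adjusted p = 0.946). Whether the pigs carry different DQ alpha sequences at these probes was not tested.

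**Figure D4:**
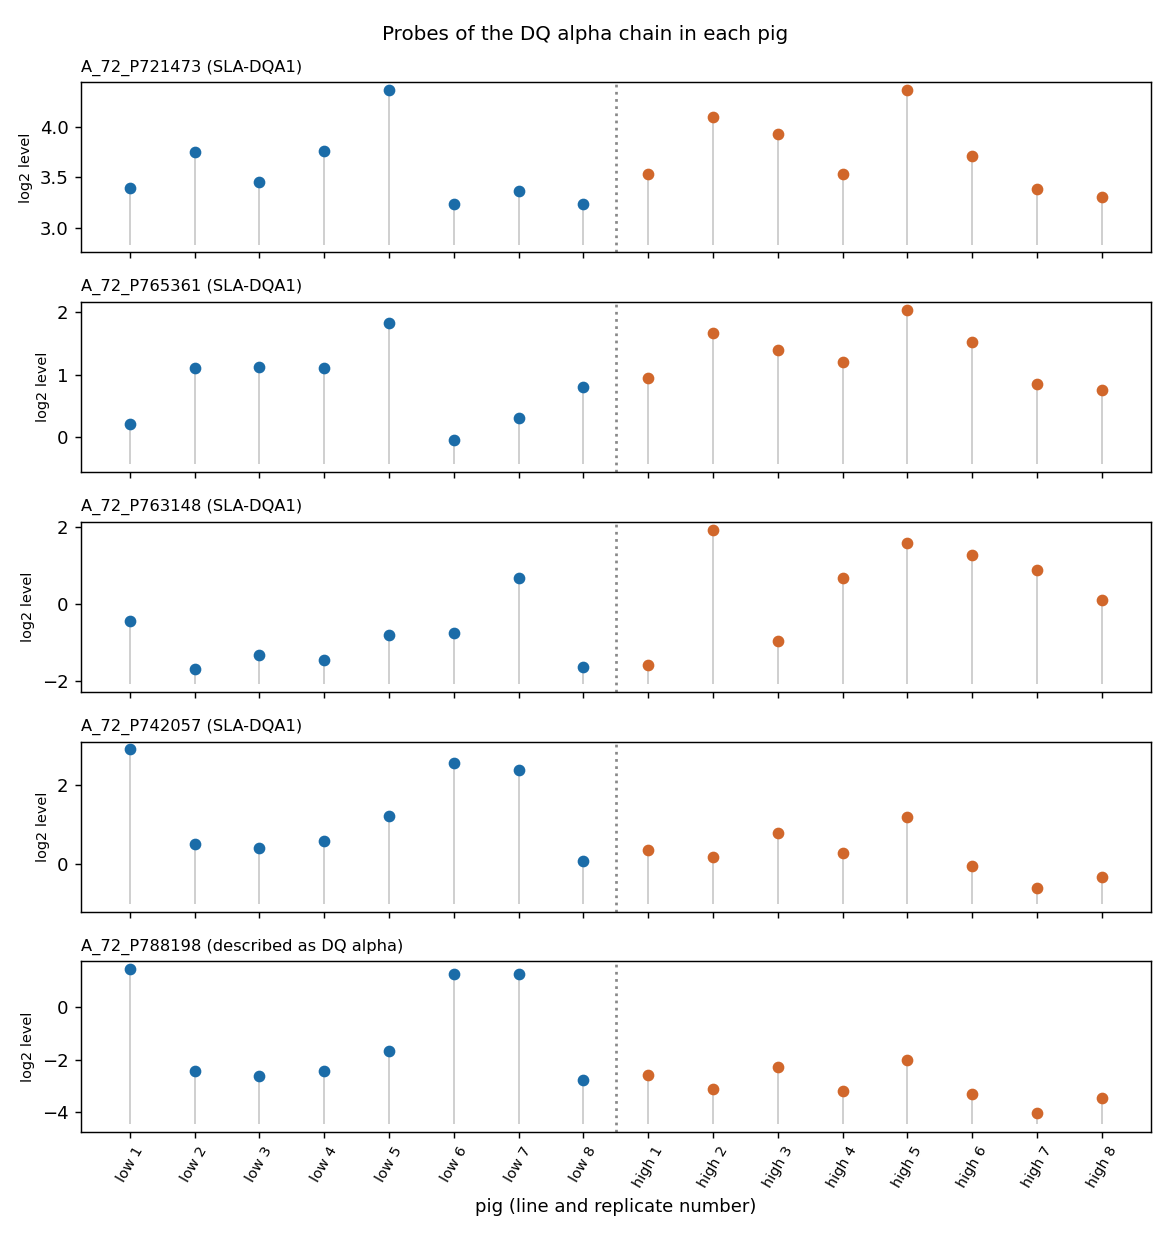
Level (vertical axes, log2 signal minus the array's 75th percentile) of 5 DQ alpha probes in each of the 16 pigs (horizontal axis, line and replicate number; the dotted line parts the lines). Low-RFI pigs 1, 6 and 7 are lowest on A_72_P765361 (0.30 or below) and highest on A_72_P742057 and A_72_P788198 (2.40 and 1.25 or above), while A_72_P721473 does not part them from the rest.

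Of 30 other genes of the class II pathway, 20 had a tested probe with their symbol alone. None was called between the lines (limma, 0 called, 1 of 20 at an unadjusted p under 0.05, against 5.46% of all tested probes). Of these genes 10 were lower and 10 higher in low-RFI pigs, and the median change was +0.04. The smallest p belonged to LGMN, an endosomal protease that trims CD74 and antigens (+0.32, SE 0.150, adjusted p = 0.912). Next were CD80, a costimulator (−0.57, SE 0.280, adjusted p = 0.929), and JAK2, a kinase of the interferon gamma receptor (+0.36, SE 0.179, adjusted p = 0.946).

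Markers of the cells that could carry class II were examined in the same way, and in whole liver fewer cells of a type and less RNA per cell cannot be told apart. No marker was called between the lines. The summed signal of 5 tested Kupffer cell and macrophage markers of 10 was 66.3 to 154 times the 75th percentile in low-RFI pigs and 73.8 to 133 in high-RFI pigs. That of 7 tested T cell markers of 8 was 0.756 to 3.45 and 0.720 to 3.09. Low-RFI pig 5 had the highest sum of both lists, and high-RFI pig 5 the second highest of the T cell and the third highest of the macrophage list. Dendritic cell markers (3 tested of 9) summed to 0.349 to 0.517 and 0.373 to 0.519, and sinusoidal endothelium markers (5 tested of 7) to 17.0 to 30.6 and 16.3 to 27.0. The B cell marker CD79A was also tested (0.0145 to 0.0634 and 0.0306 to 0.0560). For dendritic cell markers, endothelium markers and CD79A, low-RFI pig 5 ranked 6, 12 and 1 of 16, counted from the highest. High-RFI pig 5 ranked 1, 16 and 14. The single gene with the smallest p was CD14, a monocyte and macrophage receptor (+0.35, SE 0.124, limma, adjusted p = 0.705).

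The relation of these 46 list genes to SLA-DRA over pigs was computed after the levels had been seen. It passed for 14 in the positive and 1 in the negative direction (permutation tests, Benjamini-Hochberg over 46). Of 29914 other tested probes, 3.75% had an r as high as the lowest positive one that passed (0.60), and 3.54% one as low as the negative one (−0.60). The highest r in the pathway list belonged to IFI30, the thiol reductase of the antigen-processing endosome, at 0.94 (rho 0.84, permutation p = 1e-05, adjusted p = 0.00046). It was followed by CD86, a costimulator (0.82), CTSB and CTSS, endosomal cathepsins (0.81 and 0.80), and CD40 (0.74). Macrophage markers that passed were AIF1 (0.81), C1QA (0.78), VSIG4 (0.78) and CD163 (0.65). T cell markers that passed were CD3D (0.79), CD4 (0.77), CD2 (0.63), LCK (0.63) and CD3G (0.60). The endothelial marker PECAM1 ran the other way (−0.60), while STAB1 (0.10), LYVE1 (0.36), CLEC4G (0.23) and VWF (0.05) of that list did not pass. Neither did CD14 (0.27), CD3E (0.52) and CD8A (0.52), nor any tested dendritic cell, B cell or hepatocyte marker. These calls rest on r. Tested by rho in the same way, CD2 (permutation, adjusted p = 0.105), CD3G (0.112) and PECAM1 (0.0918) did not pass. CTSH, CTSD, IFNGR1 and ALB passed by rho alone, ALB in the negative direction (rho −0.71). Every relation that passed by r was weaker without both pigs numbered 5, and with 14 pigs left a given r passes less easily. Without these pigs IFI30 (r = 0.87, adjusted p = 0.00092) alone still passed by permutation. The other pathway genes that had passed were at r of 0.72 (CTSS), 0.62 (CD86), 0.61 (CD40) and 0.50 (CTSB). The T cell markers that had passed fell to 0.07 to 0.59, the macrophage markers to 0.47 to 0.68, and PECAM1 was at −0.39. With levels centred within slides, r was 0.92 for IFI30, 0.52 to 0.75 for the macrophage markers that had passed and 0.48 to 0.69 for the T cell markers that had passed. The part of these cell types in the class II levels was not tested.

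Likeness over the 16 pigs was computed for 3916 named genes outside the family, by the brightest tested probe of each. Probes without a single symbol, or with only a LOC number as symbol, were left out. The genes most like SLA-DRA were IFI30 (r = 0.94), AMBN (0.91), TNFAIP8L2 (0.89), ANKRD22 (0.89) and AXL (0.88). For CD74 they were IFI30 (0.91), STK26 (0.89), ARHGAP30 (0.87), IL16 (0.86) and SLA-6 (0.85), the last a class I gene. None of these 9 genes was called between the lines, with changes of −0.48 for AMBN to +0.10 for SLA-6. These values are descriptions, since the genes were picked for their likeness and all points share the same arrays.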

How the data were processed

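Liver RNA was labelled with Cy3 and hybridised to 1-colour Agilent porcine arrays, and scans were read with Feature Extraction 10.7.3.1, per the file headers. The processed signal, mean signal and local background are intensities per the file headers. The authors' deposited table holds log2 values of 27938 spots, equal to the log2 processed signal minus each array's median over them (largest difference 4.5e-08). R 2.10.0 is named in the submitters' processing notes. Here outlier spots were set to missing, the 75th percentile was subtracted and spots of a probe were averaged. Names came from the files and RefSeq tables (32 member probes by accession, 1 by synonym, 2 by symbol). Tools were limma 3.58.1 in R 4.3.3 and numpy 2.4.6 in Python 3.11.15. On simulated data, 88% of changes of 1 and 96% of changes of 2 (log2) were recovered among 30097 probes. The changed probes were drawn from all tested probes, whose median SD within lines was 0.33, against 0.50 for class II probes. Many more probes were changed there than the 3 called in the data. These shares therefore do not give the recovery to be had for class II probes. All member genes are named, by brightest probe, with the list genes of smallest p and the genes most alike. Members and lists were chosen with earlier results of these data known.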

Additional observations from a re-analysis of the deposited data

Results flagged for a closer look

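Among the 34 tested class II probes, each in the 8 pigs of either line, 11 of 68 groups had 1 pig far from the other 7, by a gap to the nearest pig of over 0.526 of the group's range, where chance gives about 1 in 20 groups. In all 11 the pig was low-RFI pig 5, at the upper end, and the probes of a gene are not independent. The SLA-DRA probes put it at 2.19 (A_72_P561324), 4.10 (A_72_P571544), 3.32 (A_72_P610249), 4.77 (A_72_P640825), 4.93 (A_72_P683574) and 5.35 (A_72_P176171), with the next pig at 1.18, 3.22, 2.41, 3.83, 4.03 and 4.47. The SLA-DQA1 probes put it at 2.02 (A_72_P712598), 1.72 (A_72_P746609), 2.03 (A_72_P750437) and 4.37 (A_72_P721473), with the next pig at 1.34, 1.01, 1.34 and 3.76. CD74 was at 2.14 (A_72_P223292) in it, with the next pig at 1.44.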

How the results depend on the processing

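No class II probe was called under any of the 28 alternatives (limma, 0 called, 2 to 4 of 33 or 34 at an unadjusted p under 0.05). That unadjusted threshold was met by 1360 to 2403 of all probes, with 30097 tested in most alternatives. Over all tested probes, 3 were called, against 1 with probes well above background on all 16 arrays, 0 with array noise as a covariate (1885 at an unadjusted p under 0.05), and 2 to 5 when single pigs were left out, 5 without low-RFI pig 2 or high-RFI pig 4. With all pigs of a line kept, changes that turned sign were SLA-DOB at 0.0865 with normexp, SLA-DMA at 0.0070 with median scaling and SLA-DOA at −0.26 with array noise. Within single slides, 2 pigs against 2 and with no test, SLA-DMB was 0.48, SLA-DRA 0.38, CD74 0.34, SLA-DRB1 0.76 and SLA-DMA 0.49 on slide 3, SLA-DMA 0.10 on slide 1, CD74 0.056 on slide 4 and SLA-DOA −0.61 on slide 2. Within the second run of sample numbers CD74 was 0.15, SLA-DMA 0.17, SLA-DRA 0.0098, SLA-DRB1 0.12 and SLA-DOA −0.032. Leaving out single pigs gave −0.16 to 0.094 for CD74, −0.14 to 0.072 for SLA-DMA, −0.070 to 0.17 for SLA-DOA and −0.20 to 0.020 for SLA-DRB1. The r with SLA-DRA turned to −0.21 for SLA-DOB with normexp, to −0.15 for SLA-DOA and −0.24 for SLA-DOB with levels centred within slides, and to −0.40 and −0.20 without the 2 pigs farthest from the median. The cause was not tested. The other 6 genes passed under every alternative run. The labels give no pairing by replicate number, so the numbers were not used as pairs. Same-numbered pigs correlated at 0.0474 to 0.40, all above 0 but not all over 0.1. As a hint of pairing, 5 of the 8 low-RFI pigs correlated best with their own number. Most same-numbered pigs also had neighbouring sample numbers, such as 55 and 56 for the pigs numbered 5. Whether the pigs were paired was not tested. With the replicate block 0 class II probes and 4 of all probes were called. An unadjusted p under 0.05 was found for 3 of 34 class II probes, against 2403 of all 30097 tested probes. The SE of SLA-DRA was 0.114 in place of 0.244. Signal over background limits SLA-DOB most.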
